A study of Mus musculus with 16 samples.

Results

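The genes described here encode the proteasome and the proteins that assemble, activate or inhibit it. They were taken as every gene of the deposited 3′-UTR table whose symbol is Psm followed by a letter from a to g and a digit. Of 14925 genes, 50 matched, with 90 annotated 3′-UTR regions. One of the 50, Psmc3ip, is named for an interaction with the ATPase subunit Psmc3 and acts in meiotic recombination. It was left out of all counts, which leaves 49 genes. For each gene, the region with the most reads over all libraries was used.

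The libraries came from bone marrow-derived macrophages (BMDMs), primary cells grown from the femur marrow of mice of the strain C57BL/6J 129 with L-cell conditioned medium as the source of M-CSF. Wild-type (WT) mice were compared with mice that lacked Cpeb4 in every tissue (full Cpeb4-/-, called KO), and the cells were left untreated or received lipopolysaccharide (LPS), a component of the bacterial cell wall, at 10 ng/ml for 9 h. From each culture, RNA was sequenced from the lysate (Input) and after crosslinking and immunoprecipitation with an anti-CPEB4 antibody (RIP). The 16 samples are 8 libraries run on 2 lanes each, and the table sums the lanes, which leaves a single library (1) for each combination of genotype, treatment and assay. No difference below has a replicate check, each test compares libraries and not conditions, and the 95% intervals cover counting error only. In bulk samples, fewer cells of a type and less RNA per cell cannot be told apart.

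The 20S core of the proteasome is a barrel of stacked rings. Psma genes encode the outer α rings, and Psmb genes encode the inner β rings, whose subunits Psmb5, Psmb6 and Psmb7 cut proteins. Interferons induce the immunoproteasome subunits Psmb8, Psmb9 and Psmb10, which take the places of Psmb5, Psmb6 and Psmb7, respectively, and change the peptides that are made for MHC class I. The 19S particle, built from Psmc ATPases and Psmd subunits, recognises and unfolds ubiquitinated proteins, while Psme genes encode the PA28 and PA200 activators, Psmf1 the inhibitor PI31, and Psmg genes the chaperones of 20S assembly. CPEB4 recognises the cytoplasmic polyadenylation element (CPE), a U-rich motif of the 3′-UTR through which the poly(A) tail is lengthened or shortened.

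A prediction of CPE activity was rarer among proteasome genes than among all genes, and the genes that carry it in the region used are shown first because the RIP ratios below are set against it. The authors' table predicted CPE activity in 7 of the 49 genes (14.3%, against 33.9% of all genes), and in the region used here for 5 of them. Among genes whose region was 300 bases or less, 2 proteasome genes (6.45%) had a prediction in that region, against 10.2% of all genes. Psma1, Psma5, Psmc6 and Psmg3 carried a prediction of activation, Psmc6 one of repression as well, and Psmd11 one of repression alone. The windows below were read from GRCm38.p6 (mm10), on the strand of the transcript, with the consensus CPE (the letters TTTTAT in DNA) in capitals. Psmd7, which had a consensus CPE and no prediction, is given for comparison.
Psma1 (α ring), chr7:114264659-114264688, minus strand: ctataccaatgtTTTTATatgaagaaaata
Psma5 (α ring), chr3:108279910-108279939, plus strand: gtgtgtgtgtttTTTTATgaagtctgtaca
Psmc6 (19S ATPase), chr14:45348998-45349027, plus strand: tcttatgacttaTTTTATattttgttttcc
Psmg3 (20S assembly chaperone), chr5:139823622-139823651, minus strand: ttgtgggaagatttTTTTATtaaaaataaa
Psmd11 (19S lid), chr11:80473057-80473086, plus strand: aatctgactggcTTTTATtttccttttcaa
Psmd7 (19S lid), chr8:107580609-107580638, minus strand: gggcactcttccTTTTATccttgaaaggga

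A consensus CPE, searched on the transcript strand as TTTTAT or TTTTAAT, was found in 17 of the 49 regions (34.7%, against 57.4% of all genes). Most proteasome 3′-UTRs are short, with a median of 193 bases against 1014 for all genes, and 31 of them were 300 bases or less. Among regions of that length the consensus was found in 16.1% of the proteasome genes and in 14.6% of all genes. The AU-rich pentamer ATTTA was found in 34.7% of the proteasome regions and 65.2% of all regions, and a polyadenylation hexamer, AATAAA or ATTAAA, in 91.8% and 87.7%. Among regions of 300 bases or less, the pentamer was found in 22.6% and 19.5%, and a hexamer in 87.1% and 67.8%. Of the regions, 46 lie inside a UTR of their own transcript in GENCODE M21. Those of Psma8 and Psmb10 do not, and the transcript of Psmg1 is absent from that release. The region of Psmb7 overlaps an exon of Nek6 and that of Psme1 an exon of Emc9, on the opposite strand. The use of strand in counting is not given in the sources used here, so reads of these pairs cannot be told apart. Psme2b is a near copy of Psme2, and the split of reads between them is uncertain.

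The summed 3′-UTR reads of a library ranged from 467696 to 2492300, and levels are given as reads per 1000000 of this sum (CPM). This sum came to 27.3% and 31.8% of the authors' library total in the KO RIP libraries and to between 46.4% and 70.1% in the others. Annotated regions can overlap, so a read can count more than once in it, and these values are not shares of distinct reads. Macrophage markers summed to between 1764 and 4482 CPM, and markers of T cells, B cells, neutrophils, fibroblasts and dendritic cells to at most 6.41 CPM each. Of the markers listed, only 1 of 5 had a region for neutrophils, and 3 of 4 each for T cells, B cells and fibroblasts. Reads of the Cpeb4 3′-UTR were lower in KO (52.0 and 52.6 CPM in the untreated and LPS Inputs) than in WT (130 and 136 CPM). In the RIP libraries they were at 836 and 770 CPM in WT and at 257 and 367 CPM in KO. Which exons the knockout lacks is not given in the sources used here, so these reads are no full check of it.

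Together, the 49 genes summed to 975 CPM in untreated WT Input and 934 CPM in untreated KO Input, and to 1542 and 1522 CPM in the LPS Inputs. The sums over the RIP libraries were 860 and 1371 CPM in WT and 1022 and 1582 CPM in KO, untreated and LPS. Reads per gene over the 8 libraries ranged from 4 for the chaperone Psmg1 to 2233 for Psme3, which encodes the nuclear activator PA28γ, with a median of 135. The genes with the most Input reads, Psme3, the 19S subunits Psmd11, Psmd3 and Psmd8, and Psmb8, held 50.9% of the Input reads of the 49. The thymus-specific Psmb11 had from 0 to 2 reads in a library.

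The first comparison asked how LPS changed these mRNAs in the lysate of each genotype. Proteasome reads were higher after LPS in both, with the immunoproteasome, α ring and gankyrin (Psmd10) genes leading. The summed share of the 49 genes was 1.58-fold higher in the WT LPS library (95% interval 1.47 to 1.70) and 1.63-fold higher in the KO LPS library (1.52 to 1.75). The median gene of the whole table had a log2 ratio of -0.08 in WT and -0.18 in KO. Of all 49 genes, with no read filter, 37 had a higher share and 10 a lower share in the WT LPS library, and 40 and 6 in KO. Among genes with at least 10 reads in the untreated library, 14 of 18 proteasome genes were higher in WT (39.5% of all genes) and 18 of 21 in KO (37.3% of all genes). Without Psmb8, Psmb9 and Psmb10 the log2 ratio of the sum was 0.55 in WT and 0.52 in KO, against 0.66 and 0.70 with them.

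A gene was called where a chi-square test of its reads had a Benjamini-Yekutieli adjusted p under 0.02 and a log2 ratio past 0.5 in size, or an unadjusted p under 0.02 and a log2 ratio past 1.2. In WT Input, 35 of the genes had the 10 reads needed for the test, 10 rose after LPS (28.6%) and none fell. Over all genes tested, 13.7% rose and 16.6% fell. In KO Input, 15 of 33 rose (45.5%) and none fell, where 14.5% of all genes rose and 20.2% fell. At an unadjusted p under 0.05, 18 genes were higher in WT and 15 in KO, and 0 were lower. TMM scaling, which shifts all LPS ratios up by 0.16 in WT and 0.24 in KO, moved the share of all calls that were higher from 45.2% to 57.1% and from 41.9% to 56.4%. Without TMM scaling, 3 of the 10 calls of proteasome genes in WT and 6 of the 15 in KO rest on the unadjusted p. A gene can reach 10 reads through the LPS library alone, so these shares do not stand for all 49. Psma4, Psma6, Psmb8, Psmb9, Psmb10, Psmd10 and Psmd11 rose in both genotypes, and 7 of 32 genes tested in both is 21.9%, against 10.96% of all genes. These 7 were also called when each ratio was centred on the median of its length class, an adjustment chosen after the data were seen, while Psma3, Psma7 and Psme2b in WT and Psma2 and Psma5 in KO were not, which left 7 and 13 calls. The summed log2 ratio was 1.06 in WT and 1.39 in KO for the 31 genes with regions up to 300 bases, and 0.46 and 0.37 for the 18 longer ones.

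**Figure D1:**
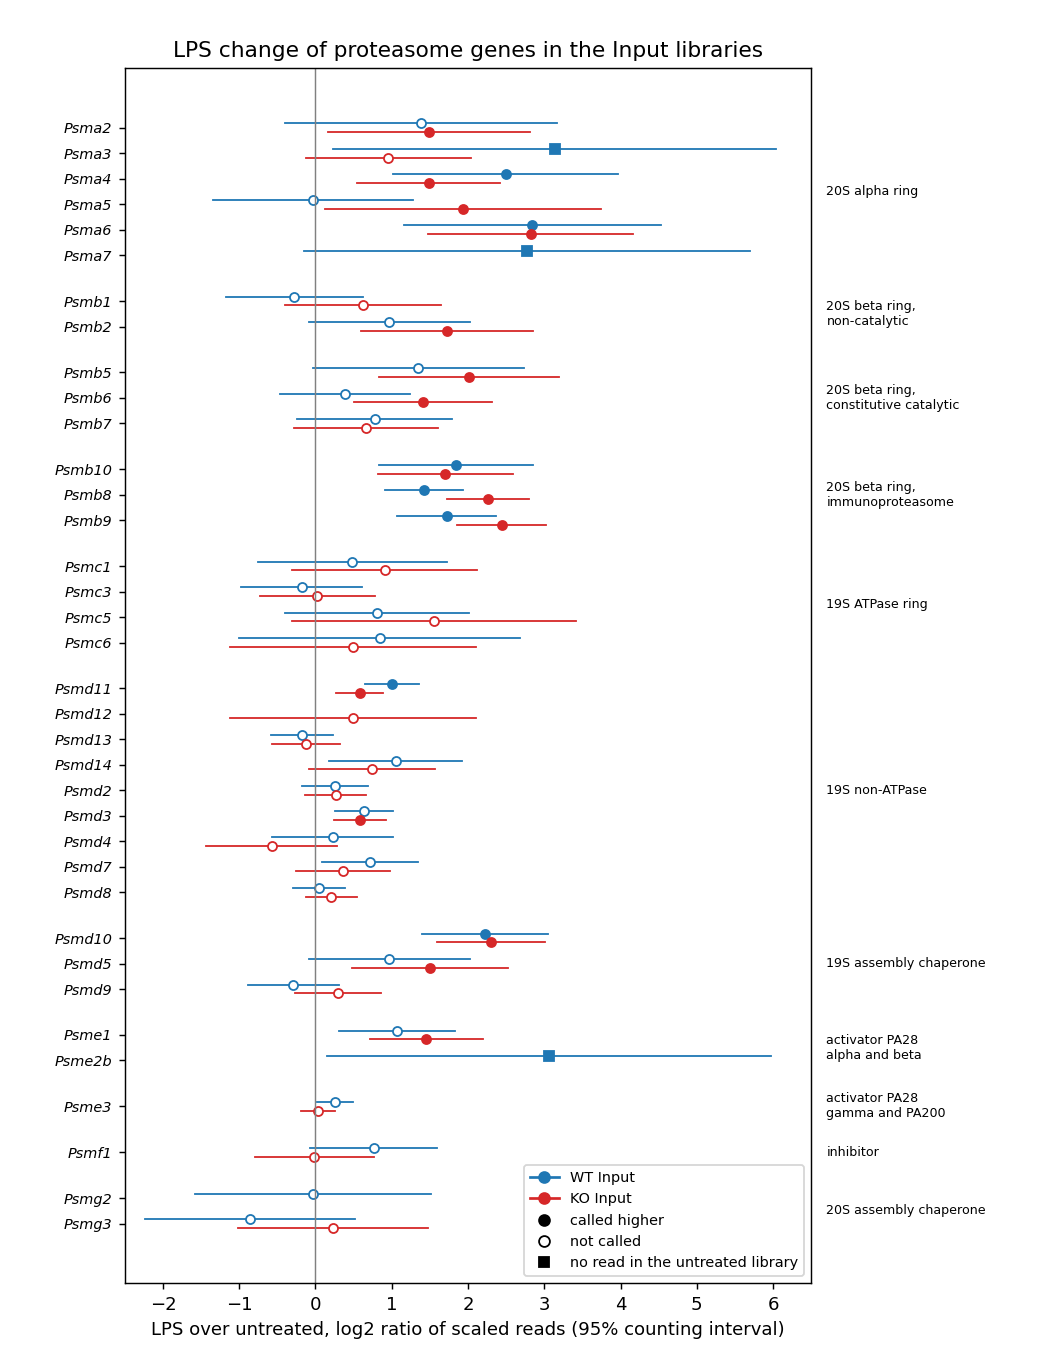
Log2 ratio of LPS over untreated Input for each proteasome gene with at least 10 reads in the pair, in WT (blue) and KO (red), with 95% counting intervals and 1 library per point; filled points were called higher, open points were not called, and squares had no read in the untreated library. The immunoproteasome genes Psmb8, Psmb9 and Psmb10 are filled in both genotypes, while Psmd13, Psme3 and, in the region used, Psmc3 lie near 0.

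All immunoproteasome genes rose in both Inputs. Psmb8 (β5i), at chr17:34201267-34201454, had 35 reads in untreated and 196 in LPS WT Input, and 32 and 178 in KO Input. This is 37.7 and 103 CPM in WT and 24.1 and 118 CPM in KO, a log2 ratio of 1.42 (0.91 to 1.93) and 2.26 (1.72 to 2.79), with adjusted p of 7.56e-07 and 5.78e-18. Psmb9 (β1i), at chr17:34182036-34182333, had 21 and 147 reads in WT and 26 and 165 in KO, with log2 ratios of 1.72 (1.07 to 2.37) and 2.44 (1.85 to 3.03). Both genes lie in the MHC locus beside the peptide transporter genes, and their LPS libraries stood above the untreated ones in both genotypes. Psmb10 (β2i), at chr8:105935728-105935793, had fewer reads, 8 and 65 in WT and 12 and 47 in KO, and log2 ratios of 1.84 (0.84 to 2.85) and 1.70 (0.82 to 2.59).

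Of the constitutive catalytic subunits, Psmb5 and Psmb6 rose in KO and none was called in WT. Psmb5 (β5) had 4 and 25 reads in WT Input and 6 and 31 in KO Input, a log2 ratio of 1.35 (-0.03 to 2.73) in WT and 2.01 (0.83 to 3.19) in KO, where it rose. Psmb6 (β1) had 14 and 39 reads in WT and 12 and 38 in KO, a log2 ratio of 0.38 (-0.47 to 1.24) in WT and 1.40 (0.50 to 2.31) in KO, where it rose on the unadjusted p. For Psmb7 (β2), with 9 and 34 reads in WT and 13 and 24 in KO, the log2 ratios of 0.78 and 0.66 were not called. Counts this low leave intervals wider than most of the ratios themselves.

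The immunoproteasome genes were then set against their counterparts. Summed over each trio, the log2 LPS ratio of the immunoproteasome genes exceeded that of the constitutive genes by 0.83 (0.12 to 1.54) in WT Input and by 0.91 (0.22 to 1.59) in KO Input. By pair, the difference was 1.33 (0.26 to 2.41) in WT and 1.04 (-0.04 to 2.11) in KO for Psmb9 against Psmb6. For Psmb10 against Psmb7 it was 1.07 (-0.36 to 2.49) and 1.05 (-0.25 to 2.34). Psmb8 against Psmb5 showed differences of 0.07 (-1.40 to 1.55) and 0.25 (-1.05 to 1.54), so that only the first pair in WT was separated from 0 by its interval. These intervals were not adjusted for the 3 pairs in 2 genotypes.

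Levels of the paired subunits were compared per base of region. In LPS WT Input, Psmb8 had 2.90 times and Psmb10 4.03 times the reads per base of its counterpart, while Psmb9 had 0.869 times those of Psmb6. In untreated WT Input the ratios per base were 2.76, 1.92 and 0.345. Reads were 100 bases long and counted on any overlap, which raises the per-base level of regions as short as those of Psmb6 (70 bases), Psmb5 (72 bases) and Psmb10 (66 bases). With 99 bases added to each length, the LPS WT ratios were 4.51 for Psmb8, 2.74 for Psmb10 and 1.58 for Psmb9, so the order of Psmb9 and Psmb6 turned with this choice.

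**Figure D2:**
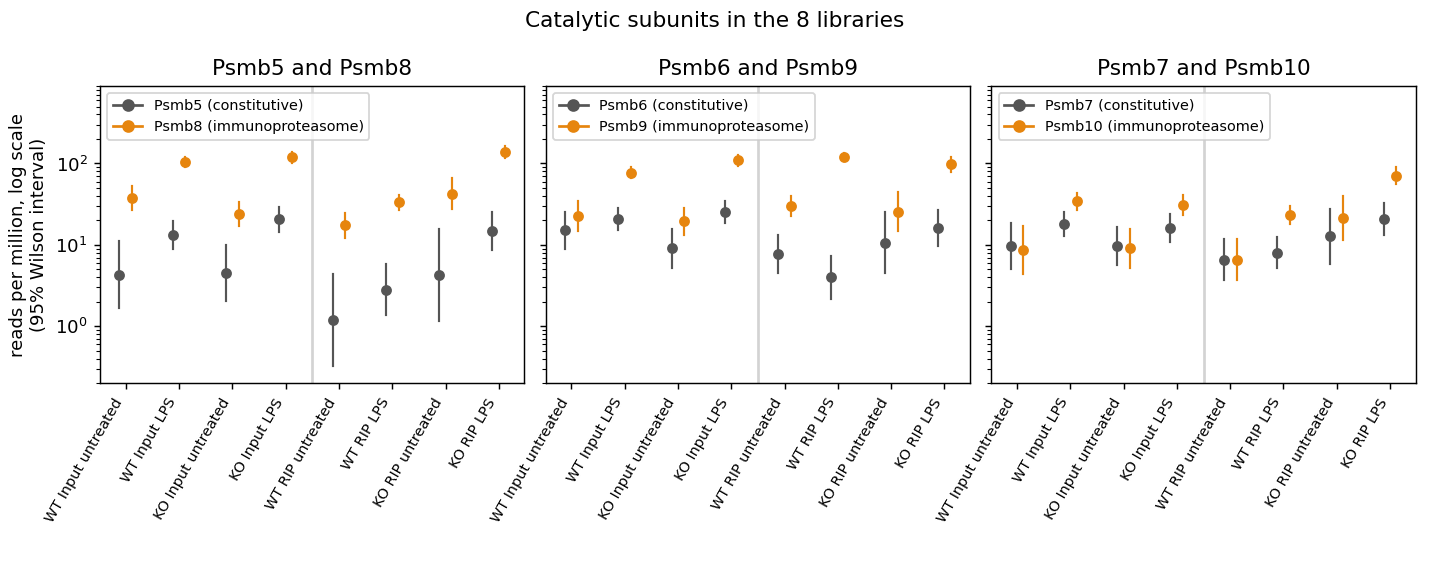
Level in CPM on a log axis of the immunoproteasome subunits and their constitutive counterparts in the 8 libraries, with 95% Wilson counting intervals and 1 library per point. Psmb8, Psmb9 and Psmb10 are higher in each LPS library than in its untreated one, whereas Psmb6 went from 7.80 to 4.01 CPM in the WT RIP libraries.

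The α ring genes were scarce in untreated Inputs and together gained the most by fold of the groups with over 1 gene, apart from the immunoproteasome genes in KO. Their sum went from 18.3 to 79.1 CPM in WT Input, a log2 ratio of 2.04 (1.33 to 2.74), and from 27.2 to 92.5 CPM in KO Input, a log2 ratio of 1.74 (1.22 to 2.26). Psma6 had 2 and 43 reads in WT and 4 and 39 in KO, with log2 ratios of 2.84 (1.16 to 4.53) and 2.82 (1.48 to 4.16). Psma4 had 3 and 45 reads in WT and 11 and 37 in KO, with log2 ratios of 2.49 (1.02 to 3.97) and 1.48 (0.55 to 2.42). Psma3 and Psma7 rose in WT from no read to 17 and 13 reads, which is at least 2.77-fold and 2.12-fold against a floor of 3 reads. Their adjusted p of 0.117 and 0.303 did not pass, and the calls rest on the unadjusted p. Psma2 and Psma5 were called in KO and not in WT, a difference that was not called in its own test, Psma1 had 7 reads or fewer in every Input, and Psma8, a testis form, had 2 or fewer. The non-catalytic β subunits had 27 and 72 reads in WT and 20 and 56 in KO, and of these Psmb2 rose in KO.

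In the 19S particle the summed ratios were lower than those of the α ring or the immunoproteasome. The base and lid subunits summed to 510 and 705 CPM in untreated and LPS WT Input and to 493 and 636 CPM in KO, with log2 ratios of 0.46 (0.31 to 0.62) and 0.37 (0.22 to 0.51). Psmd11 (Rpn6), a lid subunit, had 80 and 331 reads in WT and 133 and 226 in KO, with log2 ratios of 1.01 (0.65 to 1.36) and 0.58 (0.27 to 0.89), and rose in both. Psmd3 (Rpn3) had 72 and 231 reads in WT and 112 and 191 in KO, and similar log2 ratios of 0.64 (0.26 to 1.02), not called, and 0.58 (0.25 to 0.92), called. At the low end, Psmd13 (Rpn9) had 76 and 138 reads in WT and 76 and 79 in KO, with log2 ratios of -0.18 (-0.58 to 0.22) and -0.13 (-0.58 to 0.33). The ATPase Psmc3 had 19 and 35 reads in WT and 25 and 29 in KO, and log2 ratios of -0.18 and 0.03. These values hold for the region used, of 97 bases. Another region of Psmc3, of 270 bases, held 3 and 37 reads in WT and 18 and 32 in KO and was not used. In the regions used, no Psmc gene was called in either genotype.

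Of the assembly factors, Psmd10 rose in both genotypes. Psmd10 (gankyrin), which binds the ATPase Psmc4 during assembly of the 19S base, had 12 and 123 reads in WT Input and 18 and 105 in KO Input. It went from 12.9 to 64.8 CPM and from 13.6 to 69.9 CPM, log2 ratios of 2.22 (1.40 to 3.05) and 2.30 (1.60 to 3.004) with adjusted p of 2.44e-07 and 7.16e-11. The other 19S chaperones were Psmd5, which rose in KO on the unadjusted p (1.498 on the log2 scale), and Psmd9, with log2 ratios of -0.29 and 0.30 that were not called. The 20S chaperones Psmg1 to Psmg4 summed to 11 and 18 reads in WT and 13 and 15 in KO.

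Among the activators, Psme1 rose in KO and Psme3 was called in neither genotype. Psme1 (PA28α), which interferon also induces, had 16 and 72 reads in WT Input and 18 and 58 in KO Input. Its log2 ratio was 1.07 (0.31 to 1.83), not called, in WT and 1.45 (0.71 to 2.2004) in KO, where it rose. Psme2 (PA28β) had 0 and 1 reads in both genotypes, too few for a ratio, and its near copy Psme2b had 0 and 16 reads in WT and 2 and 4 in KO. In WT, Psme2b was called higher on the unadjusted p, at least 2.61-fold against the floor. Psme3 (PA28γ) had 197 and 483 reads in WT and 299 and 347 in KO, and its log2 ratios of 0.26 (0.02 to 0.50) and 0.03 (-0.19 to 0.26) were not called. The region used for Psme4 (PA200) spans 4 bases and held 4 and 1 reads in WT and 2 and 4 in KO. Psmf1 (PI31) had 14 and 51 reads in WT and 24 and 27 in KO, log2 ratios of 0.76 (-0.07 to 1.59) and -0.02 (-0.79 to 0.76).

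Genes of the same pathway outside the proteasome were taken from lists. Of 11 genes of MHC class I presentation tested in WT Input, 4 rose and none fell, against 13.7% and 16.6% of all genes, and their median log2 ratio was 0.34. In KO, 4 of 10 rose and 1, Pdia3, fell, against 14.5% and 20.2% of all genes, with a median of 0.20. Among those that rose, the peptide transporter genes Tap1 and Tap2 had log2 ratios of 1.44 and 1.51 in WT and 1.98 and 1.95 in KO, and Nlrc5, the transactivator of MHC class I genes, had 1.92 and 2.48. Of 7 other proteasome factors tested, with medians of 0.16 and 0.13, 1 fell in each genotype. Ddi2, a protease that processes the proteasome gene activator Nfe2l1, had log2 ratios of -1.41 and -1.56. Nfe2l1 had log2 ratios of 0.41 in WT, not called, and 0.57 in KO, called higher.

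No proteasome gene was called between WT and KO Input, untreated (26 tested) or after LPS (38 tested), by the chi-square test. At an unadjusted p under 0.05, 1 was higher and 0 lower in untreated WT, and 3 were higher and 1 lower after LPS. Over all genes, 0.867% were called higher in WT and 1.45% lower in untreated cells, and 1.5% and 1.48% after LPS. With TMM scaling the share of all calls after LPS that were higher went from 50.2% to 38.7%, and with library totals to 37.5%. The log2 ratio of the summed reads was 0.06 (-0.06 to 0.19) untreated and 0.02 (-0.06 to 0.10) after LPS. Among genes with 50 reads in the untreated pair, the highest log2 ratios were those of Psmb8 (0.64), Psmd13 (0.51) and Psmd9 (0.26), and the lowest those of Psme3 (-0.09), Psmd3 (-0.12) and Psmd11 (-0.21). After LPS, among genes with 50 reads in that pair, the highest were Psmd4 (0.84), Psmf1 (0.56) and Psmd13 (0.46). The lowest were Psmd9 (-0.34), Psmb9 (-0.50, -0.82 to -0.18) and Psmb5 (-0.64). The change with LPS differed between the genotypes' Inputs for none of 32 proteasome genes at a Benjamini-Hochberg adjusted p under 0.05, against 1.65% of all genes, where 1 had an unadjusted p under 0.05, and only the interval of Psmb8 (a difference of -0.84, -1.58 to -0.10) did not hold 0.

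The RIP comparison asked which of these mRNAs came down with CPEB4, with the KO libraries as the background of the antibody. Scaled to summed 3′-UTR reads, more proteasome genes had a lower than a higher share in the WT RIP. The log2 ratio of WT over KO RIP summed to -0.25 (-0.40 to -0.10) untreated and -0.21 (-0.30 to -0.12) after LPS, and the median over all genes was -0.10 and -0.04. A few genes weighed on these sums. Without Psmb8, Psmb9 and Psmb10 the sum after LPS was -0.097 (-0.20 to 0.0019), and without Psme3 and Psmd11 the sums were -0.57 (-0.75 to -0.40) untreated and -0.46 (-0.56 to -0.36) after LPS. Of the 49 genes, 18 had a higher and 30 a lower share in the untreated WT RIP, and 18 and 31 after LPS. Among genes with at least 10 reads in the KO RIP, 5 of 16 proteasome genes were higher in untreated WT (43.8% of all genes) and 11 of 35 after LPS (47.3% of all genes). The median of the genes tested minus that of all genes was -0.61 untreated and -0.52 after LPS. With no read minimum the median of all genes itself was at -0.42 and -0.52, and the difference was -0.36 untreated and -0.033 after LPS. In that setting, the 1 read added to each library draws genes with few reads below 0, because the WT RIPs are deeper. They summed to 1665914 reads in untreated WT against 467696 in KO, and to 2492300 against 871482 after LPS. Scaled to the authors' library totals instead, all ratios shift up by 0.84 untreated and 1.14 after LPS, which turns the sign of the sums and not their place relative to other genes. In untreated cells, 6 of 32 genes tested were called lower and none higher, where 9.4% of all genes were lower and 6.76% higher. After LPS, 12 of 40 were lower and 1, Psmd11, higher, where 15% of all genes were lower and 10.7% higher. Over all genes, 41.8% of the calls were higher in either treatment, against 98.1% and 98.2% with library totals and 67.6% and 64.1% with TMM scaling. With library totals, 3 proteasome genes were higher and 0 lower in untreated WT, and 15 were higher and 1, Psmb8, lower after LPS. Scaled to summed 3′-UTR reads, 4 of the 6 calls untreated and 4 of the 13 after LPS rest on the unadjusted p.

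The genes lower in both treatments were 5, namely Psmb8, Psmb10, Psmc3, Psmd13 and Psme1, which is 15.6% of the 32 tested in both, against 5.60% of all genes. Psmb8 had 29 reads in the WT RIP and 20 in the KO RIP of untreated cells, and 83 and 120 after LPS, or 33.3 against 138 CPM. Its log2 ratios were -1.32 (-2.12 to -0.51) and -2.04 (-2.44 to -1.64), the latter with an adjusted p of 3.24e-24. Psmb10 had 11 and 10 reads untreated and 58 and 62 after LPS, with log2 ratios of -1.71 and -1.61 (-2.12 to -1.10). Psme1 had 6 reads in both untreated libraries and 25 and 30 after LPS, with log2 ratios of -1.83 and -1.77 (-2.52 to -1.02). Psmd13 had 52 and 40 reads untreated and 60 and 59 after LPS, with log2 ratios of -1.46 (-2.05 to -0.87) and -1.49 (-2.01 to -0.98). Psmc3 had 5 and 8 reads untreated and 10 and 14 after LPS, with log2 ratios of -2.42 and -1.96. Psmd2 was called lower in untreated cells, with 27 and 22 reads, and Psma2, Psmd1, Psmd6 and Psmd14 after LPS, with log2 ratios from -1.59 to -2.001.

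Psmb9 was not called, unlike its partners of the immunoproteasome. It had 50 reads in the WT RIP and 12 in the KO RIP of untreated cells, and 302 and 85 after LPS, which is 121 against 97.5 CPM. Its log2 ratios of 0.14 (-0.74 to 1.02) and 0.30 (-0.04 to 0.65) were not called. The constitutive subunits were all lower after LPS, where Psmb5 had 7 reads in WT and 13 in KO, Psmb6 10 and 14, and Psmb7 20 and 18, with log2 ratios of -2.32, -1.96 and -1.37. In untreated cells the reads were 2 and 2 for Psmb5, 13 and 5 for Psmb6, and 11 and 6 for Psmb7, and none was called. After LPS, the ratio of the immunoproteasome trio exceeded that of the constitutive trio by 1.004 (0.35 to 1.66), and that of Psmb9 exceeded that of Psmb6 by 2.26 (1.09 to 3.44). The differences for Psmb8 against Psmb5 and Psmb10 against Psmb7 were 0.28 (-1.04 to 1.60) and -0.24 (-1.27 to 0.79).

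At the high end, Psmd11 had 254 reads in the WT RIP and 44 in the KO RIP of untreated cells, and 563 and 105 after LPS. Its log2 ratio was 0.67 (0.21 to 1.13), not called, and 0.90 (0.60 to 1.195), called higher with an adjusted p of 2.78e-07. Next in order were Psmg3, with 46 and 8 reads and a log2 ratio of 0.87 after LPS, and Psmd7 (Rpn8), with 197 and 39 reads and 0.79 (0.30 to 1.28), neither of which was called. Psme3 had 256 and 49 reads untreated and 474 and 128 after LPS, with log2 ratios of 0.53 and 0.36 that were not called. The others of the named activators and the inhibitor were at low counts. Psme2 had 0 and 2 reads untreated and 8 and 4 after LPS, Psme4 5 and 2, then 7 and 2, and Psmf1 21 and 10, then 32 and 10, none called. Among genes with 50 reads in the untreated pair, Psmd8 (-0.80) and Psmd4 (-0.83) were lowest after Psmd13, neither called. The WT over KO ratio changed with LPS for none of 32 genes at a Benjamini-Hochberg adjusted p under 0.05, nor at an unadjusted p under 0.05 (0 of 32), against 1.34% of all genes.

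Each RIP ratio was then divided by that of the Inputs. With this correction, 6 of 23 genes tested were lower and none higher in untreated cells, where 9.1% of all genes were lower and 7.29% higher. After LPS, 10 of 37 were lower and none higher, where 14.4% of all genes were lower and 8% higher. With library totals, 96.6% and 98.6% of all calls were higher, against 44.5% and 35.7%, and with TMM scaling 63.1% and 63.0%. Scaled to summed 3′-UTR reads, 5 of the 6 calls of proteasome genes in untreated cells and 6 of the 10 after LPS rest on the unadjusted p. The corrected log2 ratios after LPS were -1.84 (-2.34 to -1.35) for Psmb8, -1.95 (-2.602 to -1.303) for Psmd13 and -1.74 (-2.64 to -0.84) for Psme1. Among genes with 50 reads in both pairs, the highest were Psmb9 at 0.80 (0.33 to 1.27), Psmd11 at 0.68 (0.30 to 1.07) and Psmd9 at 0.48 (-0.44 to 1.41). None of these was called. Genes with fewer reads lay higher, among them Psma1 at 1.72, Psmg3 at 1.62, Psmd12 at 1.18 and Psma5 at 0.82, none called. In untreated cells Psmd13 was lowest among genes with 50 reads in both pairs, at -1.98 (-2.72 to -1.23), followed by Psmd8 (-0.97) and Psmd3 (-0.64), which were not called. Among the same genes, Psmd11 (0.88), Psme3 (0.62) and Psmd7 (0.14) were highest and were not called.

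The length of the 3′-UTR moved with these ratios over all genes, and proteasome 3′-UTRs are short. After LPS, the median log2 ratio of WT over KO RIP was -0.96 for all genes with regions up to 100 bases, -0.78 over 100 and up to 200 bases, -0.38 over 200 and up to 300 bases and 0.11 over 2000 bases. For the 31 proteasome genes up to 300 bases the summed log2 ratio was -0.76 (-1.02 to -0.50) untreated and -0.62 (-0.75 to -0.48) after LPS. For the 18 longer ones it was -0.03 (-0.21 to 0.15) and 0.11 (-0.01 to 0.23). With each gene centred on the median of its length class, an adjustment chosen after the data were seen, the median of the proteasome genes tested was -0.26 untreated and -0.08 after LPS. Psmd13 was then lower in both treatments, Psma2, Psmb8 and Psmd14 were lower after LPS, and Psma5, Psma6, Psmb9, Psmd7 and Psmd11 were higher after LPS. The centred log2 ratios after LPS were -1.18 for Psmd13, -1.26 for Psmb8, 0.68 for Psmb9 and 0.86 for Psmd11. The part of length itself in the ratios was not tested.

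**Figure D3:**
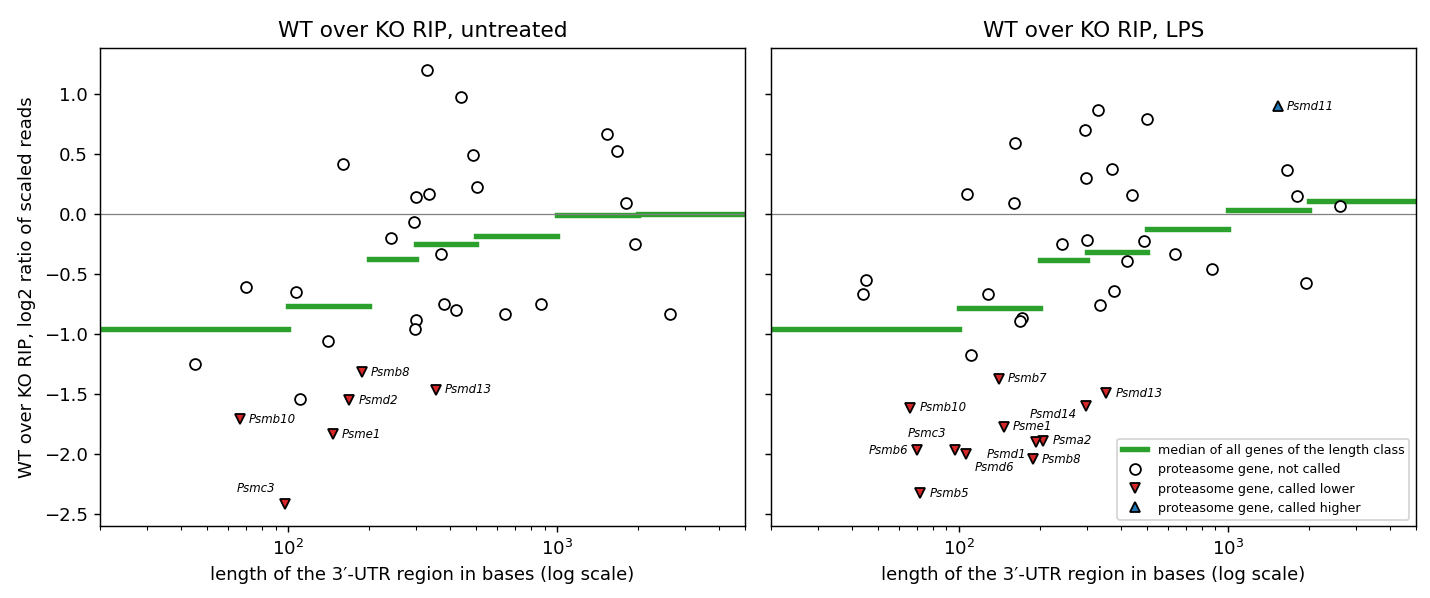
Log2 ratio of WT over KO RIP, scaled to summed 3′-UTR reads, against the length of the 3′-UTR in bases (log axis) for proteasome genes with at least 10 reads in the pair, with the median of all genes in each length class, untreated (left) and LPS (right), 1 library per group; scaling to library totals would shift all values up by 0.84 and 1.14. Medians are lower for short regions, the labelled genes called lower, such as Psmb8 and Psmd13, lie under the median of their class, and Psmd11 after LPS lies over it.

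Genes with a CPE prediction lay higher than those without. After LPS, the 5 proteasome genes with a prediction in the region used had enough reads for the test. All had log2 ratios of WT over KO RIP over 0, with a median of 0.70, and 1 was called higher. The 35 without such a prediction had a median of -0.67, and 12 of them were called lower. Over all genes the medians were 0.29 and -0.33. Length differed as well: 22 of the 35 had regions up to 300 bases, with a median of -1.27, and held 11 of the 12 lower calls. At that length, 2 proteasome genes had a prediction, with a median of 0.65. Over all genes up to 300 bases the medians were 0.07 with and -0.78 without a prediction. The parts of length and of the prediction were not tested. For Psma1, Psma5, Psmc6, Psmg3 and Psmd11, whose sites are shown above, the log2 ratios after LPS were 0.70 (-0.06 to 1.46), 0.59 (-0.28 to 1.46), 0.38 (-0.47 to 1.23), 0.87 (-0.16 to 1.90) and 0.90, so that only the last was called. Psma1 had 78 reads in the WT RIP and 16 in the KO RIP, Psma5 55 and 12, and Psmc6 51 and 13. In untreated cells the median was 0.30 over 4 genes with a prediction and -0.77 over 28 without one.

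RIP over Input was compared between subunit groups, with the KO libraries as the background. Of the groups with over 1 gene, the α ring had the highest RIP over Input in every culture, with summed log2 ratios of 2.24 (1.53 to 2.94) in untreated and 1.56 (1.2998 to 1.82) in LPS-treated WT cells, and of 1.88 (1.26 to 2.50) and 1.36 (1.05 to 1.67) in KO cells. Psma1 had 2 reads in untreated and 4 in LPS WT Input, and 33 and 78 in the WT RIPs, while in KO it had 2 and 7 in the Inputs and 9 and 16 in the RIPs. Psma7 had 13 reads in the LPS WT Input and 92 in the RIP, and 5 and 28 in KO, log2 ratios of 2.34 (1.53 to 3.15) and 3.06 (1.79 to 4.33). The intervals of the α ring overlapped between WT and KO.

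The constitutive catalytic trio had log2 RIP over Input of -0.89 (-1.66 to -0.13) untreated and -1.77 (-2.31 to -1.24) after LPS in WT, and of 0.31 (-0.60 to 1.22) and -0.25 (-0.75 to 0.26) in KO. The regions of this trio are short, at 72, 70 and 141 bases. Over all genes with regions up to 100 bases, the median after LPS was -0.74 in WT and 0.11 in KO. Over 100 and up to 200 bases it was -0.88 and -0.03, so short regions in general were lower in WT. The immunoproteasome trio had -0.36 (-0.82 to 0.10) and -0.28 (-0.47 to -0.08) in WT and 0.78 (0.23 to 1.33) and 0.24 (0.02 to 0.47) in KO. Its members went opposite ways in LPS-treated WT cells, with Psmb9 at 0.64 (0.36 to 0.92), Psmb8 at -1.62 (-1.99 to -1.25) and Psmb10 at -0.56 (-1.06 to -0.049). The summed reads of the 19S base and lid had log2 ratios between -0.34 and 0.10 in all cultures, while single genes were spread more widely, from -2.005 to 2.28 for the non-ATPase subunits in LPS-treated WT cells. Psme3 was under 0 in both genotypes, at -0.47 and -0.42 in WT and -1.08 and -0.65 in KO, and Psme4 had too few reads for a ratio. The 20S chaperones had summed ratios of 1.3005 (0.40 to 2.204) and 1.22 (0.47 to 1.96) in WT, with intervals that overlapped those of 0.50 (-0.81 to 1.81) and 0.49 (-0.57 to 1.54) in KO. Most of their WT RIP reads were those of Psmg3, 40 of 52 untreated and 46 of 57 after LPS. Psmg2 had 9 reads in the LPS WT Input and 6 in the LPS WT RIP. Over all 49 genes the summed log2 ratio was -0.18 and -0.17 in WT and 0.13 and 0.06 in KO.

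**Figure D4:**
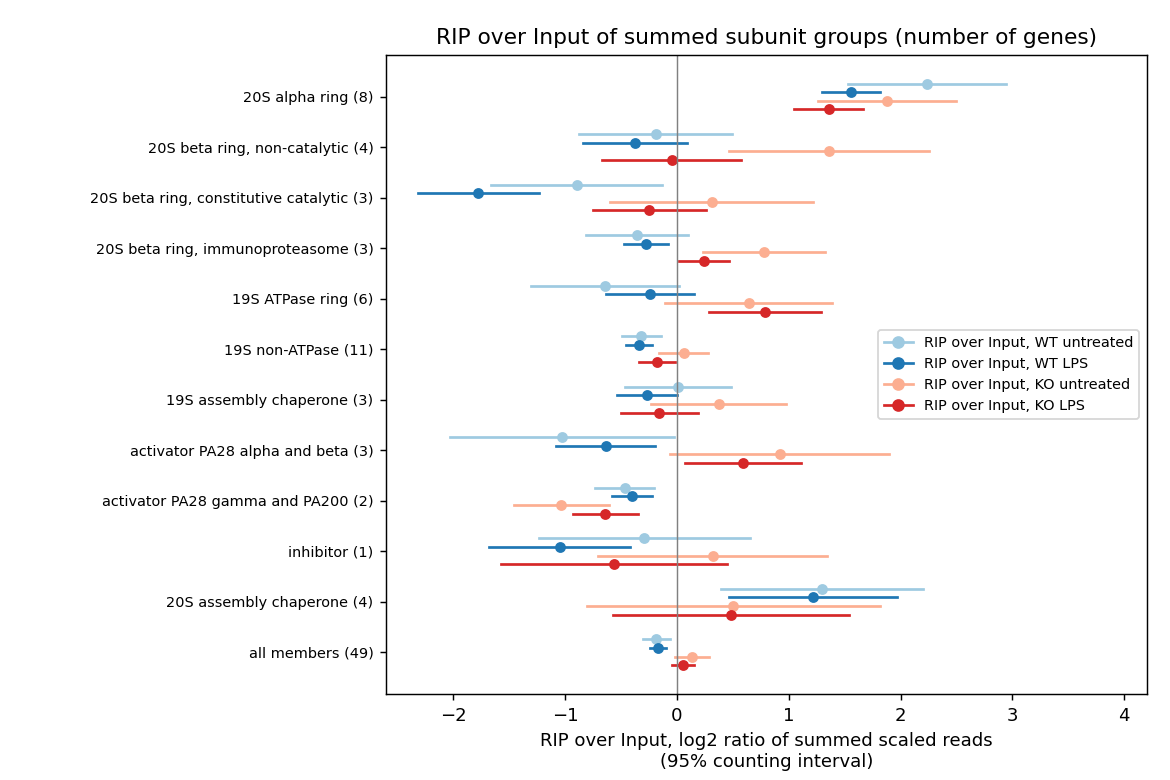
Log2 ratio of RIP over Input, scaled to summed 3′-UTR reads, of the summed reads of each subunit group in the 4 cultures, with 95% counting intervals and 1 library pair per point. The α ring lies over 0 in WT and KO alike, whereas the constitutive catalytic trio lies at -1.77 in LPS-treated WT cells and near 0 in KO cells. Over all genes with regions up to 100 bases, the median after LPS was -0.74 in WT and 0.11 in KO.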

How the data were processed

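RNA-immunoprecipitation and sequencing of 8 BMDM libraries was analysed from the tables deposited by the authors. According to the methods, reads of 100 bases were aligned to mm10 with Bowtie2 2.2.2 and duplicates were removed. The authors deposited a read count per 3′-UTR, counted on any overlap, and an RPKM, which served here only to derive library totals (1714630 to 3866559). Columns of the authors' own fold changes, p-values and peak scores were not used. Of 31117 rows, 495 had no symbol (0.902% to 1.04% of summed counts) and were left out.

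Members and gene lists were chosen with earlier results of these data known. Log2 ratios had 1 read added to each library and were scaled to summed 3′-UTR reads. Two-sided Pearson chi-square tests were adjusted (Benjamini-Yekutieli) over all genes with at least 10 reads in the pair, at the fold and p thresholds of the study, without its peak score. Input-corrected ratios and changes of a ratio were differences of log2 ratios with normal p-values. Intervals are normal for ratios and Wilson for CPM. Values are given in every library for Psmb5 to Psmb10, Psme1 to Psme4 and Psmf1, and for the 3 highest and 3 lowest genes with 50 reads per comparison. Alternatives were 0.1 reads added, another adjustment, TMM, library totals, a fold threshold alone, the longest region, and a read minimum of 50 or none. The sums that leave out genes or split them by length, and the length centring, were added after seeing the data. Scripts used Python 3.11.15, scipy 1.17.1 and edgeR 4.0.16 (TMM factors) and were tested on simulated data. Sequences came from GRCm38.p6 and promoters from RefSeq. The list of interferon response factors is not reported here.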

Additional observations from a re-analysis of the deposited data

How the results depend on the processing

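Of 266 recomputed values, 228 stayed within the counting interval or within 1.5 times the count, and 38 moved. The sign relative to the median of all genes turned for 2 medians after LPS, the input-corrected one given below and that of RIP over Input in WT (-0.25 to 0.18 with no read minimum). The summed and median LPS changes relative to all genes (0.74 and 0.89 in WT, 0.88 and 0.92 in KO) held under every alternative run. With at least 50 reads in the pair, the genes that rose after LPS were 6 in WT and 8 in KO, and with a fold threshold alone 6 in KO. For WT over KO Input in untreated cells, 1 gene was lower with no read minimum and 1 with the longest region per gene.

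The calls of WT over KO RIP turned on scaling. With library totals, 3 genes were higher and 0 lower in untreated cells, and 15 higher and 1 lower after LPS. The input-corrected calls were then 2 higher and 0 lower untreated, and 10 higher and 0 lower after LPS. With TMM scaling, which moved the median of all genes by 0.22 untreated and 0.24 after LPS, 2 and 3 genes were higher, and 2 after LPS with input correction. With the Benjamini-Hochberg adjustment, 1 was higher untreated, 2 after LPS, and 2 after LPS with input correction. With 50 reads, 1 gene was lower untreated and 5 after LPS, and with input correction 1 lower untreated, then 1 higher and 4 lower after LPS. With the fold alone, 1 was lower untreated, 0 higher and 4 lower after LPS, and with input correction 1 and 5 lower. Length centring left 1 lower untreated and 5 higher and 4 lower after LPS, and with input correction 1 lower, then 6 higher and 2 lower. The median relative to all genes after LPS went from -0.52 to -0.082 with length centring and to -0.033 with no read minimum, and with input correction from -0.47 to 0.11 with length centring. The value with no read minimum includes the pull of the added read on genes with few reads, described above. The cause of the other changes was not tested.

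No paired analysis was possible because each genotype, treatment and assay had 1 library, whose lanes are summed in 1 column. For the same reason no replicate was left out. Depth limits the short regions most: 7 of the 49 genes had under 20 reads over the 8 libraries, and 3 had under 10.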

Other observations

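The LPS change of the proteasome genes was also present inside the RIP libraries, a comparison chosen after the data were seen. The log2 ratio of their summed reads, LPS over untreated, was 0.67 (0.58 to 0.76) in the WT RIP and 0.63 (0.48 to 0.78) in the KO RIP. Of the 49 genes, 38 had a higher share in the LPS library in WT and 34 in KO. Psma6 went from 18 to 170 reads in the WT RIP (2.59 on the log2 scale, 1.90 to 3.27), Psmb9 from 50 to 302 (1.99, 1.56 to 2.42) and Psmd10 from 35 to 155 (1.53, 1.01 to 2.06).

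Promoters were searched for interferon and stress motifs in the RefSeq promoter table (GRCm38.p6), which listed 41 of the 49 genes with 44 promoters, on both strands. The letters of an interferon-stimulated response element (ISRE), GAAA and GAAA with any 2 bases between them, were found in 5 genes (Psmb3, Psmd4, Psmd9, Psme1 and Psmg4), which is 12.2% against 3.99% of all genes of the table. The gamma-activated site (GAS), TTCNNNGAA, was found in 3 (7.32% against 9.55%), NF-kB letters, GGG and TTCC with any 3 bases between them, in 3 (7.32% against 6.31%), and the antioxidant response element, TGACNNNGC, in 6 (14.6% against 14.0%). Among the 3 immunoproteasome promoters, that of Psmb8 held the GAS letters and none held the ISRE letters. A match describes letters in this window and nothing more. Of the other genes with ISRE or GAS letters, Psmd2, Psmd4 and Psmd9 were called after LPS in neither Input, and Psmd4 had 24 and 18 reads in KO. Psmb3, Psmg1 and Psmg4 had too few Input reads for the test. A link between these letters and the LPS change was not tested. The interferon motifs of Psmb8 and Psme1, both of which rose after LPS in KO Input, are shown with the motif in capitals.
Psmb8, GAS, chr17:34198088-34198117, plus strand: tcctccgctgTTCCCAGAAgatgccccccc
Psme1, ISRE, chr14:55578493-55578522, minus strand: agcgggaaggGAAAGCGAAAgcacagctcg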
